A study of Homo sapiens with 4 samples.

Results

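The genes described here carry the symbols of mitochondrial ribosomal proteins and were measured in RPMI 8226 cells, an established human multiple myeloma line. Every row of the deposited gene count table whose Ensembl ID carries a protein-coding symbol made of MRPL or MRPS and a number was taken, with pseudogenes left out. This gave 78 genes of 78932 gene rows: 49 with MRPL symbols, named for the large subunit, and 29 with MRPS symbols, named for the small subunit. Genes were taken by name, but this set of names was chosen with earlier results of these data known. The rule keeps MRPS36, whose protein is now assigned to another complex. RNA-seq was done 72 h after the cells were transfected with antisense oligonucleotides built with locked nucleic acid (LNA), short modified strands that lower an RNA they are complementary to. In 2 libraries the oligonucleotide was 50 nM of an LNA targeting the long noncoding RNA LINC01432, and in the other 2 it was a control LNA whose dose is not stated separately. All 4 libraries share the cell line, the transfection and the time point, so the values describe a single line and a single targeting LNA.

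The mitochondrial ribosome translates the few mRNAs that mitochondrial DNA encodes, all of which specify membrane subunits of the respiratory chain and ATP synthase. Its ribosomal RNAs are transcribed inside the organelle, while all of its proteins are made from nuclear genes in the cytosol and imported. The large subunit holds the peptidyl transferase centre, the exit tunnel and the stalk that recruits translation factors. The small subunit binds the mRNA and holds the decoding centre.

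LINC01432, the targeted RNA, was lower in both LINC01432 LNA libraries. Its counts were 193 and 250 in the LINC01432 LNA libraries, against 598 and 440 in the control LNA libraries. In CPM, counts scaled to library size, this was 9.45 ± 0.64 in LINC01432 LNA cells and 19.2 ± 1.8 in control LNA cells (SD, n = 2 each), a log2 fold change of -1.02 ± 0.11 (SE; edgeR quasi-likelihood test, adjusted p = 0.000228). The libraries held 20873393 and 26185342 gene counts for LINC01432 LNA, and 29161298 and 24493148 for control LNA. In these bulk samples fewer cells of a type and less RNA per cell cannot be told apart. Of the 10 plasma cell markers, 9 were at 1 CPM or more in every library, and their summed level was 2644 to 2999 CPM with LINC01432 LNA and 3045 to 3232 CPM with control LNA. TNFRSF17 (log2 fold change -0.53) and XBP1 (-0.35) fell and CD38 (0.72) rose. Of the 8 T and NK cell markers none was at 1 CPM in every library (summed 1.91 to 2.65 CPM with LINC01432 LNA, 1.37 to 1.79 CPM with control LNA). Of the 8 myeloid markers, 2 were (summed 5.97 to 7.92 CPM with LINC01432 LNA, 4.84 to 5.09 CPM with control LNA), and LYZ and S100A8 were at 0 throughout. Of the 7 fibroblast and endothelial markers, 2 were (summed 6.29 to 7.65 CPM with LINC01432 LNA, 4.57 to 4.77 CPM with control LNA), and COL1A1 rose (0.86). The 5 epithelial markers, led by EPCAM and KRT18, summed to 99.2 to 99.8 CPM with LINC01432 LNA and 114 to 118 CPM with control LNA, with KRT19 at 0. The part of these shifts in the results below was not tested.

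A minority of the mitochondrial ribosomal protein genes passed the test, more of them higher than lower with LINC01432 LNA. The rises were led by MRPL12, the stalk protein of the large subunit, and the falls by MRPS30, also a protein of the large subunit by structure. MRPL53 was listed at 0 counts in all 4 libraries and was not tested. That allows up to 0.140 and 0.119 CPM in the LINC01432 LNA libraries, and 0.103 and 0.122 CPM in the control LNA libraries (3 counts, counting error only). It shares 608 of its 1344 exonic bases with CCDC142 on the same strand, which rose (0.58, adjusted p = 0.0127). Of the 77 genes tested, 14 rose and 4 fell at an adjusted p under 0.05, and 59 did not pass. Together the 18 were 23.4% of those tested, against 11.9% of all 18680 genes tested. By direction, the shares called among all genes were 7.5% higher and 4.37% lower. The median log2 fold change was 0.06 over the 77 genes and 0.01 over all genes tested. In 45 of the 77 the libraries of one group lay wholly above those of the other (27 higher and 18 lower with LINC01432 LNA), or 58.4%, which is near the 54.1% of all genes (28.2% higher and 25.9% lower).

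These counts moved with single libraries. Where a lone library is left in a group, it is assumed to vary like the other group. Without LINC01432 LNA library 1, 35 of the 77 passed, and without LINC01432 LNA library 2, 29 passed and the median turned to -0.04. Without control LNA library 1, 9 passed, and without control LNA library 2, 10 passed, all of them higher. Counts over all genes moved the same way, with 26.4%, 21.6%, 3.82% and 5.27% called in the same order. DESeq2 called 11 of the 77 higher and 2 lower, against 4.98% and 2.87% of all genes (7.85% together), and MRPL38, MRPS24, MRPS5, MRPL30 and MRPL51 did not pass in it.

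**Figure D1:**
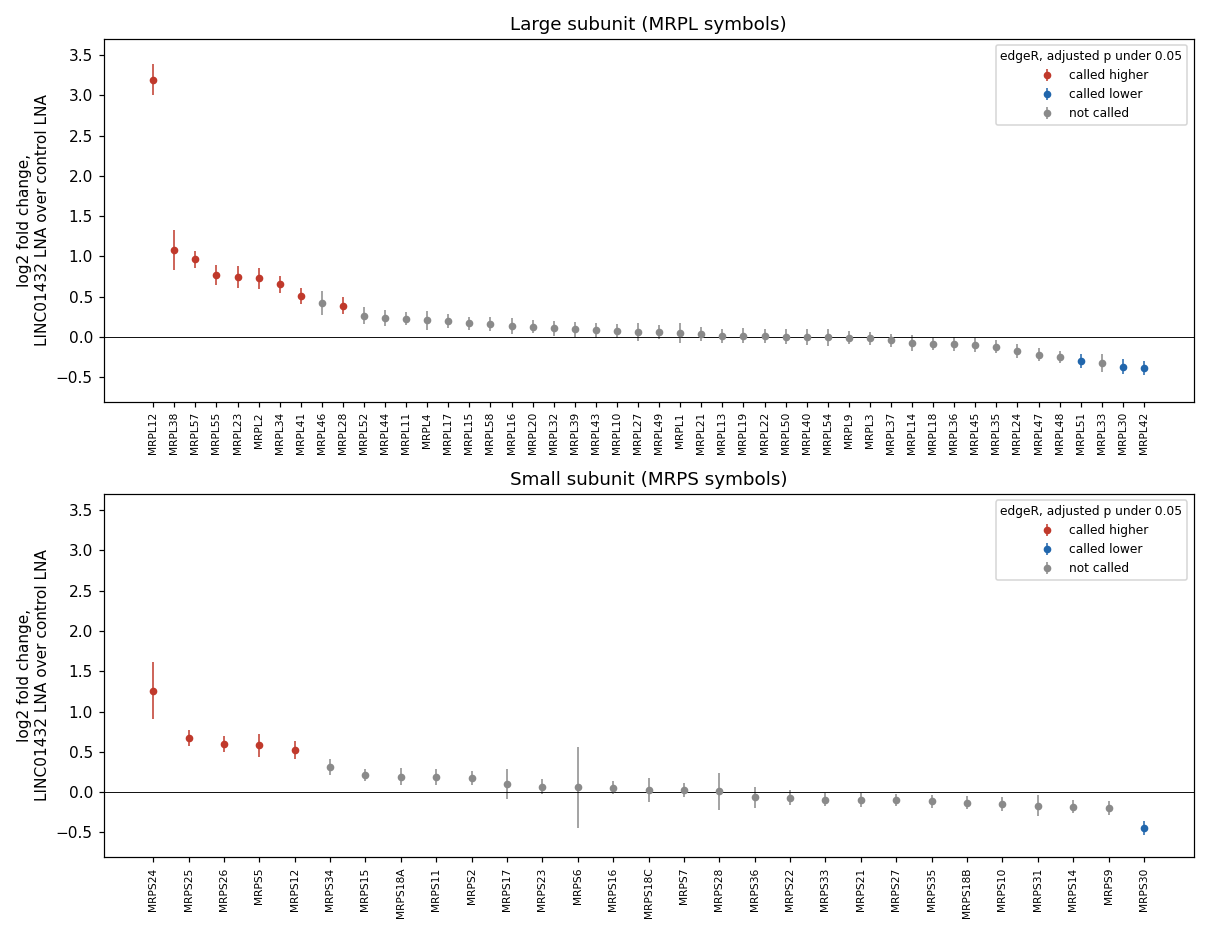
Log2 fold change of LINC01432 LNA over control LNA (y axis) for each of the 77 tested mitochondrial ribosomal protein genes, sorted by value, with the large subunit above and the small subunit below. Points are edgeR estimates from 2 libraries against 2, bars are standard errors, and colours mark genes called higher, called lower or not called. MRPL12 stands far above the rest at 3.19, while most genes of both subunits lie near 0.

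Taken as sums, these mRNAs reached 4549 and 5105 CPM in the LINC01432 LNA libraries, against 4424 and 4570 CPM in the control LNA libraries. LINC01432 LNA library 2 was the highest, and LINC01432 LNA library 1 lay between the controls, so the groups overlapped. The large subunit summed to 2784 and 3126 CPM with LINC01432 LNA, against 2709 and 2780 CPM with control LNA. The small subunit summed to 1765 and 1979 CPM with LINC01432 LNA, against 1715 and 1790 CPM with control LNA. The ratio of the sums, large over small, was 1.577 and 1.579 in the LINC01432 LNA libraries, against 1.580 and 1.554 in the control LNA libraries, again overlapping.

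The subunits were compared gene by gene as well. Of 48 large subunit genes tested, 9 rose (18.8%) and 3 fell (6.25%), and the median log2 fold change was 0.06. Of 29 small subunit genes tested, 5 rose (17.2%) and 1 fell (3.45%), and the median was 0.03. Among all genes tested 7.5% rose and 4.37% fell. The difference of the medians, large minus small, was 0.06 in LINC01432 LNA library 1 and 0.04 in LINC01432 LNA library 2, each set against the mean of the controls. It was -0.00016 without control LNA library 1 and 0.10 without control LNA library 2, and 0.12 over genes that share under 20% of their exonic bases with another gene. No test was made of this difference. Single genes spread widely in both subunits, with quartiles of -0.05 and 0.23 in the large and -0.10 and 0.19 in the small. Symbols do not match structure in every case. MRPS30 and MRPS18A are named for the small subunit but are placed in the large one by structure, as mL65 and mL66. With both moved, the large subunit held 9 higher and 4 lower of 50 tested, and the small subunit, MRPS36 still counted, 5 higher and 0 lower of 27 tested.

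Levels differed far more among these genes than between groups. Per kilobase of exon, MRPS34, a small subunit protein with no bacterial counterpart, was highest at 277 and 340.3 FPKM with LINC01432 LNA, against 242 and 255 FPKM with control LNA. Next came MRPL37, a mitochondrion-specific large subunit protein, at 117 and 119 FPKM with LINC01432 LNA and 122 and 122 FPKM with control LNA. The libraries of these genes did not overlap, so their order held in every library. MRPS21, a homologue of a bacterial small subunit protein, had 92.9 and 108 FPKM with LINC01432 LNA and 105 and 110 FPKM with control LNA. MRPS18B had 87.4 and 95.3 FPKM with LINC01432 LNA and 98.0 and 102 FPKM with control LNA, overlapping the range of MRPS21. In the large subunit MRPL18, which belongs to the part of the subunit that carries a structural RNA at the central protuberance, had 80.6 and 77.8 FPKM with LINC01432 LNA and 85.3 and 82.7 FPKM with control LNA. MRPL14, which faces the small subunit, followed at 50.5 and 60.5 FPKM with LINC01432 LNA and 57.7 and 59.3 FPKM with control LNA. None of these 6 was called in the main edgeR fit of all 4 libraries. MRPS34 came nearest, with a log2 fold change of 0.31 ± 0.10 and an adjusted p of 0.0671. It passed without LINC01432 LNA library 1 (0.44) or library 2 (0.14). In these fits the lone LINC01432 LNA library is assumed to vary like the controls. MRPS34 also passed with library totals as the scale (adjusted p = 0.0407) and with no filter on low counts (adjusted p = 0.0120). With a GC correction it turned to -0.09. MRPS21 (-0.22), MRPS18B (-0.21) and MRPL14 (-0.23) passed as lower without LINC01432 LNA library 2.

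At the low end, 10 of the 78 genes were under a mean of 3 FPKM. MRPS6 was lowest of the tested genes at 0.173 and 0.083 FPKM with LINC01432 LNA and 0.160 and 0.076 FPKM with control LNA, from 8 to 20 counts a library. Then came MRPS24 at 0.410 and 0.515 FPKM with LINC01432 LNA and 0.171 and 0.218 FPKM with control LNA, and MRPL38 at 0.764 and 0.898 FPKM with LINC01432 LNA and 0.459 and 0.323 FPKM with control LNA. MRPS5 had 0.950 and 0.973 FPKM with LINC01432 LNA, against 0.644 and 0.643 FPKM with control LNA. MRPL46 had 1.14 and 0.961 FPKM with LINC01432 LNA, against 0.774 and 0.792 FPKM with control LNA. Low levels went with exon overlap in the annotation. The 14 genes with 20% or more of their exonic bases shared with another gene had a median mean level of 5.58 FPKM and 6 of them were under 3 FPKM. The 64 others had a median of 22.0 FPKM and 4 were under 3 FPKM. How reads on shared bases were counted is not given in the sources used here, so levels of overlapping genes are uncertain, and the part of overlap in them was not tested.

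**Figure D2:**
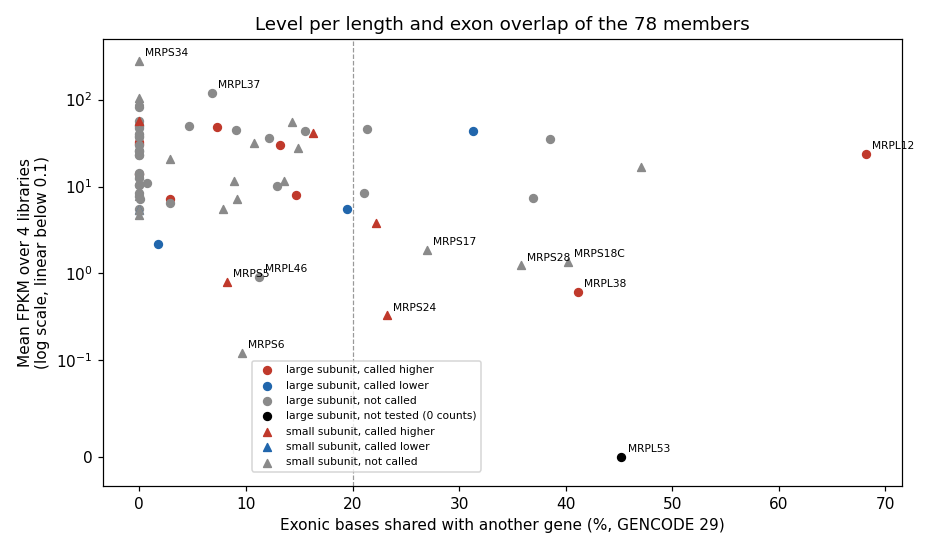
Mean level over the 4 libraries in FPKM (y axis, log scale, linear below 0.1) against the percentage of exonic bases shared with another gene in GENCODE 29 (x axis) for all 78 genes. Circles are large and triangles small subunit genes, colours give the call, and the dashed line marks 20%; MRPL53, with 45.2% shared, is the gene at 0, and MRPL12, with 68.2%, lies farthest right.

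MRPL12 changed most. It encodes the stalk protein of the large subunit, which contacts translation factors and has also been reported to bind the mitochondrial RNA polymerase. Its counts were 813 and 1262 in the LINC01432 LNA libraries, against 105 and 151 in the control LNA libraries. In CPM this was 37.9 and 50.0 with LINC01432 LNA, against 3.61 and 6.15 with control LNA. Both LINC01432 LNA libraries lay far above both controls, and the 9.15-fold difference (log2 fold change 3.19 ± 0.19, adjusted p = 4.42e-06) passed in all 12 alternative fits, between 2.78 and 3.60. The gene lies at chr17:81703357-81707526 on the plus strand of GRCh38, and 701 of its 1028 exonic bases (68.2%) are also exon of ENSG00000262660, a protein-coding gene on the same strand that runs on into SLC25A10 downstream. ENSG00000262660 was listed at 0 counts in all 4 libraries. The bases of MRPL12 that are its own are 14 at the start of the first exon (chr17:81703357-81703370) and 313 at the end of the last exon (chr17:81707214-81707526). If reads on shared bases were set aside, the MRPL12 counts rest on those 327 bases; which reads they come from could not be read from the counts. SLC25A10 had 31.4 and 39.8 CPM with LINC01432 LNA and 26.1 and 29.8 CPM with control LNA, a log2 fold change of 0.35 ± 0.12 that did not pass (adjusted p = 0.0746). Without MRPL12, 8 of 47 large subunit genes (17.0%) were called higher, against 7.5% of all genes tested, and the large subunit median was 0.06.

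The other large subunit genes that rose had changes of about a log2 unit or less. MRPL57, a small mitochondrion-specific protein of the large subunit, had 38.4 and 44.4 CPM with LINC01432 LNA, against 19.6 and 23.0 CPM with control LNA. The groups were well apart, and the log2 fold change was 0.96 ± 0.11 (adjusted p = 0.000221). MRPL55, also mitochondrion-specific, had 65.4 and 87.6 CPM with LINC01432 LNA, against 42.3 and 47.3 CPM with control LNA (log2 fold change 0.77 ± 0.12, adjusted p = 0.00218). None of the exonic bases of MRPL57 or MRPL55 is shared with another annotated gene.

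MRPL23, which sits near the exit of the peptide tunnel, had 23.0 and 29.8 CPM with LINC01432 LNA, against 14.1 and 17.7 CPM with control LNA (log2 fold change 0.74 ± 0.14, adjusted p = 0.00520). MRPL2, which lies close to the peptidyl transferase centre, had 22.7 and 27.7 CPM with LINC01432 LNA, against 13.4 and 17.2 CPM with control LNA (0.73 ± 0.13, adjusted p = 0.00434). MRPL34 had 54.2 and 68.3 CPM with LINC01432 LNA, against 38.2 and 39.8 CPM with control LNA (0.65 ± 0.11, adjusted p = 0.00250). In all 3 both LINC01432 LNA libraries lay above both controls, and library 2 was the higher of each pair. MRPL2 shares 14.7% of its exonic bases with KLC4 on the other strand, which did not pass (0.02), and MRPL34 shares 13.2% with ABHD8 on the other strand, which did not pass either (0.38, adjusted p = 0.0992). MRPL12, MRPL57, MRPL55, MRPL23, MRPL2 and MRPL34 kept their call in all 12 alternative fits.

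The remaining 3 large subunit genes that rose lost the call in some fits. MRPL38, a mitochondrion-specific protein, was measured at few counts, with 60 and 83 in the LINC01432 LNA libraries, against 49 and 29 in the control LNA libraries. In CPM this was 2.80 and 3.29 with LINC01432 LNA, against 1.68 and 1.18 with control LNA (log2 fold change 1.07 ± 0.25, adjusted p = 0.0165), and without control LNA library 2 it did not pass (0.85, adjusted p = 0.104). It shares 41.1% of its exonic bases with other genes. MRPL41, a mitochondrion-specific protein, had 41.5 and 49.2 CPM with LINC01432 LNA, against 30.4 and 33.7 CPM with control LNA (0.51 ± 0.10, adjusted p = 0.00759), and without control LNA library 1 it did not pass (adjusted p = 0.169). MRPL28 had 148 and 189 CPM with LINC01432 LNA, against 123 and 134 CPM with control LNA (0.39 ± 0.11, adjusted p = 0.0398). With median of ratios scaling of all libraries it did not pass, nor did it without control LNA library 1 or library 2. It shares 223 exonic bases with PGAP6 on the same strand, which also rose (0.32, adjusted p = 0.0294). The change of MRPL41 turned round with a correction for GC content, as given below.

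Of the small subunit genes 5 rose. MRPS25, a mitochondrion-specific protein, had 23.8 and 26.9 CPM with LINC01432 LNA, against 15.7 and 16.3 CPM with control LNA. The log2 fold change was 0.67 ± 0.10 (adjusted p = 0.00126), and it was the one small subunit gene called in all 12 alternative fits. It shares 22.2% of its exonic bases with NR2C2 on the other strand, which did not pass (0.18). MRPS26, also mitochondrion-specific, had 69.0 and 83.1 CPM with LINC01432 LNA, against 48.1 and 52.5 CPM with control LNA (0.60 ± 0.10, adjusted p = 0.00272). MRPS12, a protein of the decoding centre, had 92.0 and 117 CPM with LINC01432 LNA, against 67.7 and 78.2 CPM with control LNA (0.52 ± 0.11, adjusted p = 0.0128), and without control LNA library 1 it did not pass (adjusted p = 0.215). It shares 349 exonic bases with SARS2 on the other strand, which did not pass (0.20). In each of these 3 genes the groups did not overlap.

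MRPS5, which lines the mRNA entry side of the subunit, had 6.39 and 6.54 CPM with LINC01432 LNA, against 4.33 and 4.32 CPM with control LNA (log2 fold change 0.58 ± 0.15, adjusted p = 0.0253). It did not pass without control LNA library 1 (adjusted p = 0.210) or library 2 (adjusted p = 0.152). MRPS24, another protein of the mRNA entry site, had 23 and 34 counts with LINC01432 LNA, against 13 and 14 counts with control LNA, or 1.07 and 1.35 CPM with LINC01432 LNA and 0.446 and 0.571 CPM with control LNA. Its log2 fold change of 1.26 ± 0.36 (adjusted p = 0.0422) rests on these few counts. With library totals as the scale it did not pass, nor did it without LINC01432 LNA library 2, control LNA library 1 or control LNA library 2. It shares 606 exonic bases with the readthrough gene URGCP-MRPS24, listed at 0.

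**Figure D3:**
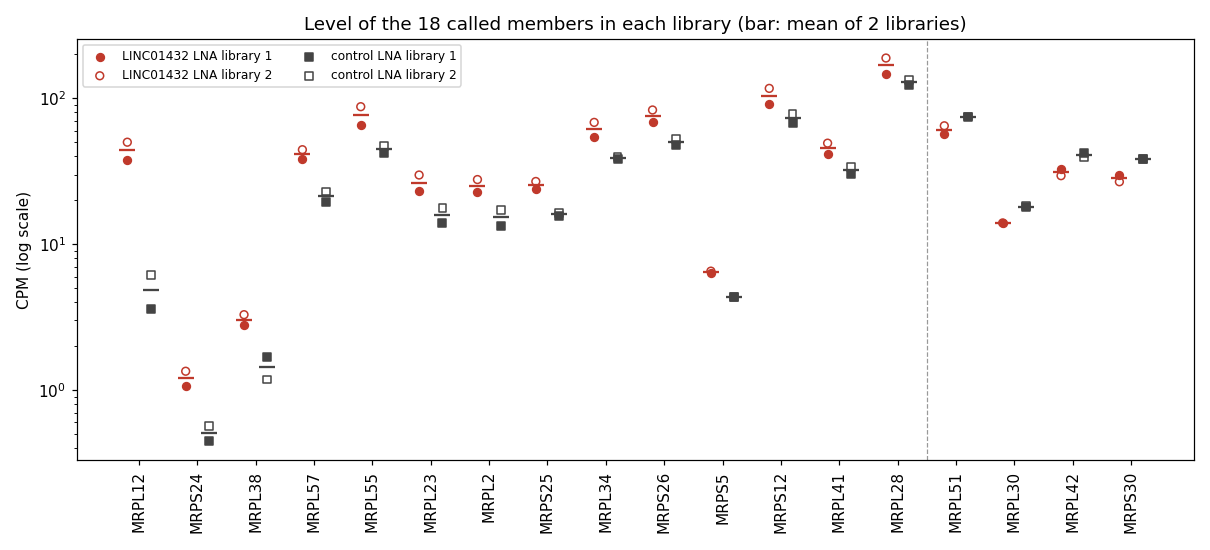
Level in CPM (y axis, log scale) of the 18 called genes in each library, with LINC01432 LNA as red circles, control LNA as black squares and bars for the mean of 2 libraries. Genes left of the dashed line rose, in order of fold change, and the 4 to its right fell. The groups do not overlap in any of the 18, which calling favours, and did not in 54.1% of all genes tested. In all 14 that rose LINC01432 LNA library 2 is the higher of its pair, as in 74.9% of all genes called higher.

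The 4 genes that fell changed by -0.44 to -0.30 on the log2 scale. MRPS30, the large subunit protein with a small subunit name, had 29.9 and 26.8 CPM with LINC01432 LNA, against 38.4 and 38.5 CPM with control LNA. The level was 1.36-fold lower with LINC01432 LNA (log2 fold change -0.44 ± 0.09, adjusted p = 0.00775). MRPL42, a mitochondrion-specific protein, had 32.8 and 29.5 CPM with LINC01432 LNA, against 42.0 and 39.2 CPM with control LNA (-0.38 ± 0.09, adjusted p = 0.0174). MRPL30, a homologue of a bacterial large subunit protein, had 14.1 and 14.0 CPM with LINC01432 LNA, against 17.9 and 18.3 CPM with control LNA (-0.37 ± 0.10, adjusted p = 0.0292). MRPL51, another mitochondrion-specific protein, had 56.8 and 64.8 CPM with LINC01432 LNA, against 74.8 and 75.0 CPM with control LNA (-0.30 ± 0.09, adjusted p = 0.0446). In all 4 genes both control libraries lay above both LINC01432 LNA libraries. None of the 4 passed without control LNA library 1 (adjusted p = 0.0796, 0.272, 0.226 and 0.361 for MRPS30, MRPL42, MRPL30 and MRPL51) or without control LNA library 2 (0.0737, 0.0806, 0.261 and 0.363 in the same order). MRPL51 shares 31.3% of its exonic bases with NCAPD2 on the other strand, which did not pass (-0.08), and MRPL30 shares 19.5% with other genes, ENSG00000241962 and ENSG00000273155 on its own strand among them.

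The 59 genes that were tested and did not pass ran from -0.32 for MRPL33 (adjusted p = 0.0816) to 0.42 for MRPL46 (adjusted p = 0.0966). Among them were the 3 paralogs that descend from 1 bacterial small subunit protein. MRPS18A had 21.5 and 24.2 CPM with LINC01432 LNA, against 18.9 and 21.2 CPM with control LNA (log2 fold change 0.19 ± 0.10, adjusted p = 0.265). MRPS18B, which like MRPS18C belongs to the small subunit, had 165 and 180.0 CPM with LINC01432 LNA, against 185 and 192 CPM with control LNA (-0.13 ± 0.08, adjusted p = 0.364). MRPS18C had 6.34 and 7.09 CPM with LINC01432 LNA, against 7.14 and 6.03 CPM with control LNA (0.03 ± 0.15, adjusted p = 0.942). MRPS36, whose protein is now known as KGD4, a part of the 2-oxoglutarate dehydrogenase complex, had 7.55 and 8.52 CPM with LINC01432 LNA, against 8.11 and 8.76 CPM with control LNA (-0.06 ± 0.13, adjusted p = 0.814).

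The changes went with the base composition of the transcripts. Across the 77 tested genes, Spearman's rho between log2 fold change and the GC content of the exonic bases was 0.50, given as a description over genes of the same 4 libraries, while rho with mean level was -0.03. Of 27 genes under 45% GC, 0 rose and 3 fell, with a median of -0.06. Of 32 genes from 45 to 55% GC, 6 rose and 1 fell, with a median of 0.09. Of 18 genes at 55% GC or more, 8 rose and 0 fell, with a median of 0.26. Over the tested genes with a GC value (6055, 6216 and 4789 in these bins) the order was the same, with 2.38%, 4.60% and 19.2% higher and 8.09%, 4.10% and 1.15% lower. LINC01432 LNA library 2 was above library 1 in 63 of the 77, against 49.9% of all genes tested, and control LNA library 2 was above library 1 in 57, against 50.1%. The libraries of a group thus also differed among themselves in these genes, and the part of this in the results was not tested.

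Removing each library's trend of log2 CPM on GC content brought rho to 0.00 and left 11 of the 77 higher and 6 lower, against 5.06% and 5.19% of all genes tested (10.3% in all). Of all calls, 63.2% were higher without the correction and 49.3% with it. Of the 14 that rose, 9 stayed higher: MRPL12 (2.79), MRPL57 (0.98), MRPL2 (0.70), MRPS25 (0.70), MRPS5 (0.62), MRPL34 (0.61), MRPL55 (0.61), MRPL23 (0.42) and MRPS12 (0.41). MRPL57 and MRPS25, at 48.5% and 46.9% GC, changed by as much as before. MRPL41, which has the highest GC content of the 78 at 71.9%, was called lower instead (-0.28, adjusted p = 0.0346). MRPL38 (0.85, adjusted p = 0.0539), MRPS24 (1.25, adjusted p = 0.0510), MRPS26 (0.25, adjusted p = 0.0627) and MRPL28 (0.07, adjusted p = 0.681) no longer passed. Of the 4 that fell, MRPS30 (-0.31), MRPL51 (-0.31) and MRPL42 (-0.26) stayed lower, and MRPL30 did not pass (-0.28, adjusted p = 0.0647).

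A further 4 genes passed with the correction and not in the main edgeR fit. MRPS15 and MRPL46 also passed with a block for the replicate number and without LINC01432 LNA library 2. MRPL36 passed without that library too. MRPL46 (0.52, adjusted p = 0.0408) and MRPS15 (0.23, adjusted p = 0.0401) were called higher, and MRPL36 (-0.31, adjusted p = 0.0143) and MRPL54 (-0.31, adjusted p = 0.0460) lower. MRPL46 had 7.37 and 6.18 CPM with LINC01432 LNA, against 4.98 and 5.09 CPM with control LNA. MRPS15 had 142 and 142 CPM with LINC01432 LNA, against 120.3 and 124 CPM with control LNA. MRPL36 had 64.0 and 72.4 CPM with LINC01432 LNA, against 73.1 and 72.0 CPM with control LNA. MRPL54 had 33.4 and 42.4 CPM with LINC01432 LNA, against 37.5 and 38.8 CPM with control LNA, so that in MRPL36 and MRPL54 the groups overlapped. With the correction the median was 0.07 in the large and 0.05 in the small subunit. In the large subunit 7 were higher and 5 lower (14.6% and 10.4%), and in the small subunit 4 higher and 1 lower (13.8% and 3.45%). Of all genes tested 5.06% were higher and 5.19% lower with it.

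**Figure D4:**
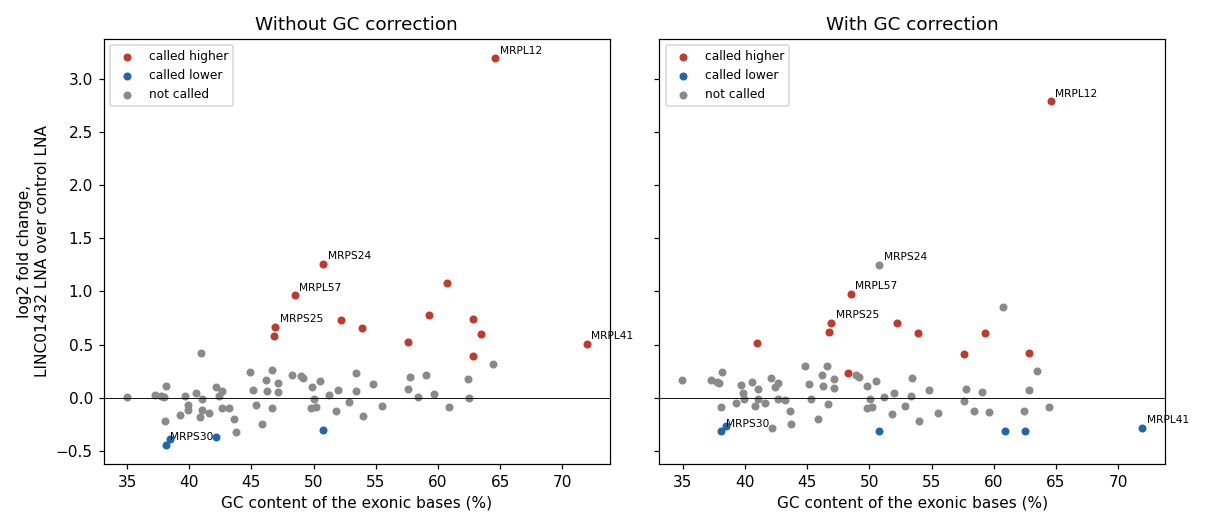
Log2 fold change of LINC01432 LNA over control LNA (y axis) against the GC content of the exonic bases (x axis, %) for the 77 tested genes, without (left) and with (right) a GC correction in edgeR; colours give the call in that fit. Without the correction the genes called higher lie mostly to the right and those called lower to the left, while with it calls of both directions spread over the range and MRPL41, at 71.9% GC, lies below 0.

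Promoters were examined because many nuclear genes for mitochondrial proteins are known to be driven by NRF1, by GABPA (also called NRF-2) and by YY1. RefSeq promoter sequences on GRCh38.p14, from 250 bases before to 50 bases after the gene start, were matched by symbol for 69 of the 78 genes. Motifs were searched on both strands as exact letters: GCGCA and GCGC with any 1 base between them for NRF1, CCGGAAG for GABPA and AAGATGG for YY1. In no matched promoter of these genes did different motifs overlap. GABPA letters were in 29 of the 69 (42.0%), against 10.7% of 27305 promoters searched and 19.0% of the 11133 promoters of tested genes. YY1 letters were in 23 (33.3%), against 6.06% and 7.55%. NRF1 letters were in 8 (11.6%), against 6.28% and 11.6%. At least 1 of the 3 was in 47 of the 69. Large and small subunit promoters held GABPA letters in 17 of 42 and 12 of 27, YY1 letters in 14 of 42 and 9 of 27, and NRF1 letters in 6 of 42 and 2 of 27. Among the 12 matched genes called higher, 4 held GABPA, 3 YY1 and 1 NRF1 letters, and among the 4 called lower, 2 held GABPA, 3 YY1 and 1 NRF1 letters. A match is a run of letters and not a site known to be bound.

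The 150 bases before the start are shown for MRPL57, MRPL55 and MRPS25, which rose in every fit and overlap no gene on their own strand. MRPL2, MRPL23 and MRPL34 also meet these terms and are not shown. The stretch of MRPS30, which fell most, is shown as well. They are printed 5′ to 3′ along the gene with motif letters in capitals. MRPL57 (chr13:21176508-21176657, plus strand) held the NRF1 letters 74 to 65 bases before the start. MRPL55 (chr1:228109300-228109449, minus strand) and MRPS25 (chr3:15065316-15065465, minus strand) held none of the 3 motifs in the window searched. MRPS30 (chr5:44808797-44808946, plus strand) held the YY1 letters 14 to 20 bases after the start, beyond the stretch printed.
MRPL57: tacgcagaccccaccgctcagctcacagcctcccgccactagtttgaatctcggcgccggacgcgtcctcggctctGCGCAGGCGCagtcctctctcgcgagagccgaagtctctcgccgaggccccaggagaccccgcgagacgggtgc
MRPL55: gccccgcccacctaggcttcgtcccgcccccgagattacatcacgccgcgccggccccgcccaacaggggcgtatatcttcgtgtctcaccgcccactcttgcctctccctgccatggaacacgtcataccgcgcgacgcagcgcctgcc
MRPS25: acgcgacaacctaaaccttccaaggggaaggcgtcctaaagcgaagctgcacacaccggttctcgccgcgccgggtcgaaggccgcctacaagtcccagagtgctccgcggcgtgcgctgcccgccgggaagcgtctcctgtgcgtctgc
MRPS30: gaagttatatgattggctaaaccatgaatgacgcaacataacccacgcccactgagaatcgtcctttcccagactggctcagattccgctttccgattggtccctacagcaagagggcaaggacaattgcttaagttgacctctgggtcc

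The printed stretch of MRPS30 had 49.3% GC, against 66.7% to 69.3% in the printed stretches of the 3 genes that rose. GC content was not compared over the other promoters, so no difference between genes that rose and fell can be read from these stretches.

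Other parts of mitochondrial translation were taken as whole lists. Of the 5 mitochondrial ribosomal proteins listed under other symbols, 1 rose and 0 fell, where 7.5% and 4.37% of all genes tested did. AURKAIP1, a small subunit protein, had 226 and 269 CPM with LINC01432 LNA, against 177 and 189 CPM with control LNA (log2 fold change 0.43 ± 0.09, adjusted p = 0.0127). At 67.3% GC it reversed to -0.11 with the GC correction (adjusted p = 0.340), and it did not pass without control LNA library 1 or library 2. GADD45GIP1, a large subunit protein near the exit tunnel, had 182 and 212 CPM with LINC01432 LNA, against 159 and 168 CPM with control LNA (0.27, adjusted p = 0.0784). The small subunit proteins DAP3 (-0.18, adjusted p = 0.174), PTCD3 (-0.08, adjusted p = 0.601) and CHCHD1 (-0.29, adjusted p = 0.387) did not pass.

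Among 15 translation factors 2 rose (13.3%) and 0 fell, against 7.5% and 4.37% of all genes tested. TACO1, an activator of translation of cytochrome c oxidase subunit I, had 8.76 and 9.63 CPM with LINC01432 LNA, against 3.09 and 4.03 CPM with control LNA. Its log2 fold change was 1.38 ± 0.16 (adjusted p = 0.000310), and 1.34 with the GC correction. MTFMT, which formylates the initiator methionyl-tRNA, had 21.4 and 23.1 CPM with LINC01432 LNA, against 18.5 and 16.2 CPM with control LNA (0.35 ± 0.10, adjusted p = 0.0424). With median of ratios scaling or library totals as the scale it did not pass, nor did it in DESeq2 or without control LNA library 1 or library 2. TUFM, the elongation factor that delivers aminoacyl-tRNA, had 883 and 1078 CPM with LINC01432 LNA, against 968 and 979.8 CPM with control LNA, and did not pass.

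Of 27 tested genes for ribosome assembly and rRNA modification, 4 rose (14.8%) and 0 fell, against 7.5% and 4.37% of all genes tested. They were MRM1, a methyltransferase of the large subunit rRNA (24.5 and 31.7 CPM with LINC01432 LNA, 17.9 and 18.5 CPM with control LNA; 0.63, adjusted p = 0.00540), MALSU1, an assembly factor of the large subunit (0.41, adjusted p = 0.0125), DDX28, a helicase of large subunit assembly (0.35, adjusted p = 0.0356), and NOA1, a GTPase (0.31, adjusted p = 0.0464). With the GC correction MALSU1 passed (0.52, adjusted p = 0.00515), while MRM1 (0.30, adjusted p = 0.0709), DDX28 (0.21, adjusted p = 0.0948) and NOA1 (0.26, adjusted p = 0.0694) did not. MALSU1, DDX28 and NOA1 did not pass in DESeq2, nor without control LNA library 1 or library 2. NOA1 also did not pass with median of ratios scaling, library totals as the scale or no filter on low counts. Of 13 tested genes for transcription of mitochondrial DNA and its regulators, POLRMT, the mitochondrial RNA polymerase (0.58, adjusted p = 0.00252), and ESRRA, a nuclear receptor (0.41, adjusted p = 0.0297), rose and 0 fell. With the GC correction they were at 0.08 and 0.03 and did not pass. Without control LNA library 1 neither passed (adjusted p = 0.104 and 0.353), and without control LNA library 2 ESRRA did not (adjusted p = 0.0961).

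Of 19 tested mitochondrial aminoacyl-tRNA synthetases and amidotransferase subunits 0 were called in edgeR and 0 in DESeq2, against 11.9% and 7.85% of all genes tested. In edgeR 5 of the 19 had an unadjusted p under 0.05, as did 4792 of all 18680 genes tested. IARS2 came nearest to a call (-0.26, adjusted p = 0.0506). IARS2 passed as lower in 8 of the 12 alternative fits, both other scalings, both other filters and omission of either LINC01432 LNA library among them (-0.29 to -0.25). With the GC correction alone IARS2 was at -0.17 and did not pass in edgeR (adjusted p = 0.131). Of the 3 genes for insertion and anchoring at the inner membrane, and of the 13 mitochondrially encoded mRNAs, 0 were called in edgeR or DESeq2 and 0 had an unadjusted p under 0.05. The mRNAs changed by -0.11 to 0.36. MT-ND4L passed in 5 of the 12 alternative fits and in opposite directions, at 0.80 without LINC01432 LNA library 1 and -0.32 without library 2. Without library 1 MT-CO1 (0.27) and OXA1L (0.15) passed too, and without library 2 MT-ATP8 (-0.24) and MT-ND3 (-0.16). The ribosomal RNAs of the organelle varied widely between libraries. MT-RNR1, the small subunit rRNA, had 31.6 and 115 CPM with LINC01432 LNA, against 44.0 and 6.20 CPM with control LNA, and MT-RNR2, the large subunit rRNA, had 35.3 and 134 CPM with LINC01432 LNA, against 51.0 and 9.94 CPM with control LNA. In both rRNAs the groups overlapped, with control LNA library 2 lowest and LINC01432 LNA library 2 highest, and the log2 fold changes of 1.53 ± 0.64 for MT-RNR1 and 1.46 ± 0.60 for MT-RNR2 did not pass in edgeR (adjusted p = 0.158 for MT-RNR1) or DESeq2, while both had an unadjusted p under 0.05 in edgeR. Each passed in 6 of the 12 alternative fits. MT-RNR1 was at 2.13 without LINC01432 LNA library 1, 0.27 without library 2 (not passed), 3.55 without control LNA library 1 and 0.73 without control LNA library 2, and it also passed with no filter on low counts. MT-RNR2 was called in the same fits. The labels name both poly(A) selection and removal of rRNA, either of which acts on these RNAs. Over the 8 lists together, 9 of 97 tested genes rose (9.28%, against 7.5% of all genes) and 0 fell (against 4.37%). The number called was larger without LINC01432 LNA library 1 or 2 and smaller without control LNA library 1 or 2, as it was over all genes.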

How the data were processed

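The authors deposited whole-number read counts per Ensembl gene for 4 libraries, not normalized. Per the submitters' processing notes bcl2fastq, STAR 2.7.11b, Subread featureCounts 2.0.8 and Salmon 1.10.0 were used with GRCh38, with no role or order given. Which annotation release and strand setting were used, and how reads on shared bases were handled, is not given in the sources used here. ENSG00000262660, URGCP-MRPS24 and ENSG00000276418 share 100% of their exonic bases with other genes on their own strand. They were listed at 0 counts in every library, so no read was credited to them. Elsewhere, reads of overlapping or antisense genes may have been split, pooled or dropped. RNA selection is described as poly(A) capture in one label and as removal of rRNA in another. Groups and replicate numbers come from the sample titles. No label states separate cultures for the libraries, so the p-values reflect the spread between libraries, which may be technical. No library pair held identical values or agreed within counting noise. Rows of no gene (97 spike-in and transgene rows) made up no more than 4.20e-05% of any library and stayed out of all totals and tests.

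Counts were tested in R 4.3.3 with edgeR 4.0.16 (quasi-likelihood F test, TMM, filterByExpr with minimum count 10 and total 15, group as the only term), with Benjamini-Hochberg adjustment over all 18680 genes tested and calls at 0.05. The F statistic gave the standard error of each log2 fold change. The pooled biological coefficient of variation was 7.13%. An exact permutation test of 2 libraries against 2 cannot go below p = 0.333. CPM use TMM-scaled totals, and FPKM are CPM per kilobase of merged exons of GENCODE 29, which also gave positions, GC content and exon overlap for all 78 members. Floors cover counting error only. Simulated counts with the pooled spread were used to test the edgeR script. It called 14.6% of true 1.3-fold, 56.25% of 1.5-fold, 63.8% of 2-fold and 85.4% of 3-fold changes. A gene that did not pass is therefore not shown to be unchanged.

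Genes were named by a rule: every member called, the 3 highest and 3 lowest of each subunit by FPKM, MRPL12, the MRPS18 paralogs, MRPS36, members whose call changes with the GC correction, the 5 proteins under other symbols, and up to 4 genes of each other list, of which the text names fewer. The members, the lists and the GC correction were chosen with earlier results of these data known. Alternatives were 2 other scalings, 2 other filters, DESeq2 1.42.0, omission of each library, a block for the replicate number, a GC correction (lowess span 0.3, per library) without and with the block, subunits by structure, and members with under 20% overlap. Figures were drawn with matplotlib 3.10.9.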

Additional observations from a re-analysis of the deposited data

How the results depend on the processing

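Of the 14 members called higher, 7 (MRPL12, MRPL2, MRPL23, MRPL34, MRPL55, MRPL57 and MRPS25) passed in all 12 alternative fits, and of the 4 called lower 0 did. LINC01432 passed in all 12, between -1.13 and -0.94. With DESeq2 1466 genes were called (930 higher, 536 lower), with 2 members lower and 5 genes of the other lists. Replicate numbers were shared by the groups, but nothing in the labels says that a number marks a shared batch, and with 2 pairs the deviations of same-numbered libraries correlated at 0.135. The replicate block called 3862 genes (2245 higher, 1617 lower), 26 members (7 lower) and 22 genes of the other lists, with MT-ND4L (0.26), MT-RNR1 (1.57), MT-RNR2 (1.44), IARS2 (-0.26) and MRPS34 (0.31) passing. The GC correction left 4 genes of the other lists and turned AURKAIP1 (-0.11) and MRPL41 (-0.28). The GC correction with the replicate block called 3581 genes (1852 lower), 29 members (9 lower) and 15 genes of the other lists, with AURKAIP1 at -0.12 and MRPL41 at -0.29. Members with under 20% overlap gave a large minus small difference of 0.12. Leaving out 1 library each time, all genes called ranged from 766 to 5228 (higher 566 to 2637, lower 200 to 2591), members called from 9 to 35 (higher 9 to 28, lower 0 to 13), genes of the other lists from 4 to 49, and the large minus small difference from -0.00016 to 0.10. Of all calls, 50.4% and 44.0% were higher without LINC01432 LNA library 1 and 2, and 73.9% and 75.5% without control LNA library 1 and 2. MT-ND4L ranged from -0.32 (without LINC01432 LNA library 2) to 0.80. The lone library left in a group is assumed to vary like the other group. Apart from the GC correction, where subtracting the trend lowers genes of high GC content, the cause of these shifts was not tested. Depth limits MRPS6 and MRPS24, at 8 to 34 counts a library.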
